A study of Mus musculus with 10 samples.

Results

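Sycp1, Sycp2, Sycp3, Hormad1, Hormad2, Smc1b, Rec8, Stra8, Meioc and Dmc1 encode proteins that cells use to enter meiosis, to build the axes of meiotic chromosomes and to join homologous chromosomes. They were picked by name as a set of meiotic synapsis and cohesin genes, with earlier results of these data known. All 10 were found by symbol among the 24470 gene entries of the count table. The RNA came from cultured testes of C57BL/6 mouse embryos at E12.5. From each of 5 embryos (M1 to M5), 1 gonad with its mesonephros was kept for 48 h in 75 µM GPI (CP 316819, an inhibitor of the glycogen phosphorylases PYGB, PYGL and PYGM), and the opposite gonad was kept for 48 h in the vehicle, DMSO. After culture the mesonephros was cut away and total RNA of the whole testis was amplified and sequenced, giving 5 vehicle and 5 GPI libraries with 10203679 to 15635322 counts each. The comparison asks whether these transcripts changed when glycogen breakdown was blocked in a fetal testis.

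Meiosis begins in germ cells of the fetal ovary, where retinoic acid and other signals switch on Stra8, while germ cells of the fetal testis are kept from entering it, in part because Sertoli cells make the retinoic acid-degrading enzyme CYP26B1. Chromosome axes of meiotic cells are laid down on cohesin rings that carry meiosis-specific subunits, and SYCP2, SYCP3 and the HORMA domain proteins coat those axes before SYCP1 zips homologs together. Some of these genes, Sycp3 among them, are transcribed in fetal germ cells of both sexes, so their RNA in a fetal testis is not a sign of meiosis by itself.

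With GPI, 6 of the 10 genes were lower (Sycp1, Sycp2, Hormad1, Hormad2, Smc1b and Stra8), 1 was higher (Dmc1), and 3 did not pass the threshold (Sycp3, Rec8 and Meioc). A call means an adjusted p under 0.05 in edgeR's quasi-likelihood test, with the mouse as a block and Benjamini-Hochberg adjustment over the 13941 genes tested. Of those 13941 genes, 22.9% were called in either direction, 11.9% lower and 11.1% higher. The 10 genes were chosen with earlier results of these data known, so their count beside these shares is a description. All 10 meiotic genes passed the filter on low counts; where only genes with 10 counts or more in each library were tested, 5 of the 10 were left and 2 of them were lower. The median log2 fold change was -1.84 over the 10 genes and 0.02 over all tested genes. The testes held every cell type of the organ, so fewer germ cells and less RNA per germ cell cannot be told apart in these libraries.

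The testes of mouse M1 stood apart from the others on the second principal component of the 500 most variable genes, with scores of 8.15 for vehicle and 19.6 for GPI where the remaining 8 libraries scored between -6.15 and 2.15. That component held 5.3% of the variance, against 78.1% on the first component, which separated the treatments. Without mouse M1, 6 of the 10 meiotic genes were called lower and 1 higher, as with all mice.

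SYCP1 forms the transverse filaments that bridge paired homologs. Sycp1 (Entrez Gene 20957) lies on the minus strand of chromosome 3 from 102818499 to 102936100 (mm10). Its normalized counts, which are counts divided by the TMM-scaled library size and multiplied by the mean of those sizes, were 217, 335, 348, 267 and 128 in the vehicle testes of M1 to M5. In the GPI testes of M1 to M5 they were 7.83, 7.30, 0, 1.05 and 19.6, from raw counts of 7, 9, 0, 1 and 18. The highest GPI library was far below the lowest vehicle library, and both of these came from mouse M5. The count of 0 in M3 allows up to 2.85 normalized counts, a limit that covers counting error only. The mean fell from 259 ± 90.6 (SD, n = 5) to 7.16 ± 7.81 (SD, n = 5), a log2 fold change of -5.16 with a standard error of 0.51 and an edgeR adjusted p of 6.82e-06. It was lower in 5 of 5 mice.

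SYCP2 and SYCP3 make up the axial elements, which become the lateral elements of the synaptonemal complex. Sycp2 (Entrez Gene 320558, minus strand of chromosome 2 from 178345295 to 178407658) had 79.7, 94.3, 140, 58.8 and 44.9 normalized counts in the vehicle testes of M1 to M5 and 26.9, 31.6, 26.6, 32.6 and 37.1 in the GPI testes. The GPI libraries lay close together, all below the vehicle libraries, and the pair in M5 was separated by the narrowest gap. Its log2 fold change was -1.34 (standard error 0.30, edgeR adjusted p = 0.00466), with lower values in 5 of 5 mice.

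Sycp3 (Entrez Gene 20962, plus strand of chromosome 10 from 88459587 to 88473236) had 216, 229, 164, 175 and 145 normalized counts in the vehicle testes and 143, 169, 173, 75.8 and 132 in the GPI testes of M1 to M5. The groups overlapped, and only the GPI testis of M4 lay well under the rest. The mean was 186 ± 35.5 (SD, n = 5) in vehicle testes against 139 ± 39.2 (SD, n = 5) in GPI testes. A log2 fold change of -0.45 (standard error 0.18) did not pass the threshold (edgeR adjusted p = 0.0891), and 4 of 5 mice had a lower value with GPI. The table's entry for Sycp3 shares 424 bp with Chpt1 on the opposite strand, and counting took no account of strand, so reads of the 2 genes there cannot be told apart. In the GENCODE exons used for its length, 535 of 1139 bp of Sycp3 are shared with Chpt1. Its level per kb may therefore hold reads of Chpt1 or miss reads of its own. No other of the 10 genes overlapped an entry of the table.

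**Figure D1:**
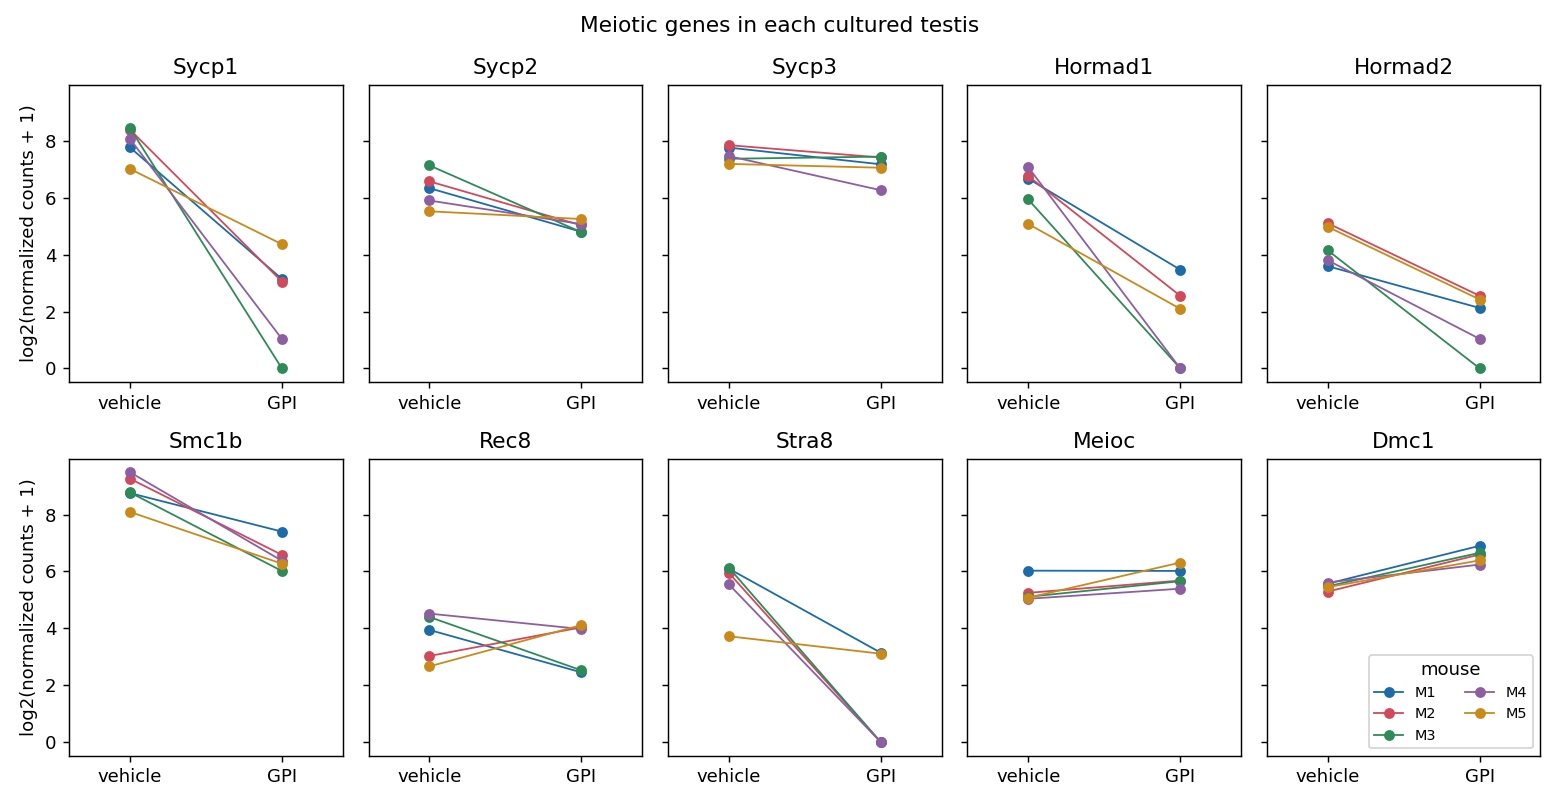
Normalized counts of the 10 meiotic genes in each library, as log2(normalized counts + 1), with a line joining the vehicle and the GPI testis of each mouse (n = 5 mice). Lines for Sycp1, Hormad1 and Stra8 drop steeply, except that of Stra8 in M5, with 1, 2 and 3 GPI libraries at 0 counts, those for Sycp3, Rec8 and Meioc overlap between treatments, and those for Dmc1 climb in 5 of 5 mice.

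HORMAD1 and HORMAD2 bind unsynapsed axes and take part in the surveillance of synapsis. Hormad1 (Entrez Gene 67981, plus strand of chromosome 3 from 95559677 to 95587860) had 101, 107, 60.3, 134 and 32.8 normalized counts in the vehicle testes of M1 to M5 and 10.1, 4.86, 0, 0 and 3.27 in the GPI testes. The raw counts behind the GPI values were 9, 6, 0, 0 and 3, and a count of 0 allows 2.85 normalized counts in M3 and 3.16 in M4. The log2 fold change was -4.61 (standard error 0.55, edgeR adjusted p = 3.33e-05), with lower values in 5 of 5 mice. Hormad2 (Entrez Gene 75828, minus strand of chromosome 11 from 4346383 to 4441082) was scarcer: its raw counts were 10, 28, 15, 13 and 40 with vehicle and 3, 6, 0, 1 and 4 with GPI. Every GPI library was below every vehicle library. Its log2 fold change was -2.95 (standard error 0.56, edgeR adjusted p = 0.00158), again lower in 5 of 5 mice.

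SMC1B and REC8 are cohesin subunits made in meiotic cells, where they take the places of SMC1A and RAD21. Smc1b (Entrez Gene 140557, minus strand of chromosome 15 from 85064689 to 85131957) had the most counts of the 10 genes with vehicle, 431, 612, 438, 717 and 272 normalized counts in M1 to M5, and had 168, 94.8, 63.7, 82.1 and 76.3 with GPI. The GPI testis of M1 was the highest of its group and still below all vehicle testes. The mean fell from 494 ± 173 (SD, n = 5) to 97.0 ± 41.2 (SD, n = 5), which was 19.6% of the vehicle mean. This was a log2 fold change of -2.35 (standard error 0.22, edgeR adjusted p = 3.68e-06), and 5 of 5 mice had a lower value.

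Rec8 (Entrez Gene 56739, plus strand of chromosome 14 from 55618166 to 55625395) was near the lower end of what this depth can measure. Its raw counts were 13, 6, 18, 22 and 7 with vehicle and 4, 19, 5, 14 and 15 with GPI in M1 to M5. Values were lower with GPI in 3 mice and higher in M2 and M5. The log2 fold change of -0.27 had a standard error of 0.57 (edgeR adjusted p = 0.788), and without M3 it was 0.13 (edgeR adjusted p = 0.926; -0.74 to 0.13, with adjusted p from 0.440 to 0.997, over 12 alternatives). No difference in Rec8 was detected.

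Stra8 and Meioc act at meiotic entry: STRA8 is the retinoic acid-responsive regulator of the meiotic programme, and MEIOC keeps meiotic germ cells from returning to a mitotic cycle. Stra8 (Entrez Gene 20899, plus strand of chromosome 6 from 34920960 to 34939342) had raw counts of 61, 51, 62, 46 and 16 in the vehicle testes of M1 to M5 and 7, 0, 0, 0 and 7 in the GPI testes. In normalized counts the vehicle testis of M5, at 12.2, was the lowest of its group, and the GPI testes of M1 and M5, at 7.83 and 7.63, were just under it. The counts of 0 allow 2.43 to 3.16 normalized counts in M2, M3 and M4. The log2 fold change was -4.09 (standard error 0.80, edgeR adjusted p = 0.00197), with a lower value in 5 of 5 mice. The size was less certain than the direction: DESeq2 gave -6.07, and the 12 alternatives in which it was tested ran from -6.07 to -3.58.

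Meioc (Entrez Gene 268491, plus strand of chromosome 11 from 102665585 to 102682238) had 64.2, 37.0, 33.5, 31.9 and 32.8 normalized counts with vehicle and 63.8, 50.3, 49.4, 41.0 and 78.5 with GPI in M1 to M5. The vehicle testis of M1 was high for its group, and in that mouse the 2 gonads were nearly equal, whereas the GPI gonad had the higher value in the other 4 mice. The log2 fold change of 0.52 (standard error 0.26) did not pass the threshold (edgeR adjusted p = 0.176).

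DMC1 is the meiotic recombinase that loads on broken DNA and searches for the homolog. Dmc1 (Entrez Gene 13404, minus strand of chromosome 15 from 79561497 to 79605109) had 46.5, 38.2, 43.6, 47.8 and 42.7 normalized counts in the vehicle testes of M1 to M5 and 119, 95.7, 99.8, 74.7 and 82.8 in the GPI testes. All GPI libraries were above all vehicle libraries, and the vehicle libraries lay within a narrow band. The mean rose from 43.7 ± 3.75 (SD, n = 5) to 94.3 ± 16.9 (SD, n = 5), which was 2.16-fold higher. Its log2 fold change was 1.09 (standard error 0.21, edgeR adjusted p = 0.00146), and the value was higher in 5 of 5 mice.

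Counted without a model, every GPI library was below every vehicle library for 6 of the 10 genes, the same 6 that were called lower. Of the tested genes, 9.05% showed this. Sycp1, Hormad1, Hormad2 and Stra8 had few GPI counts and passed the low-count filter through their vehicle libraries. Among the 5 members with 10 counts or more in each library, Sycp2 and Smc1b showed it. These counts are a description and carry no test. Every GPI library was above every vehicle library for 1 gene, Dmc1, where 7.07% of the tested genes did.

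**Figure D2:**
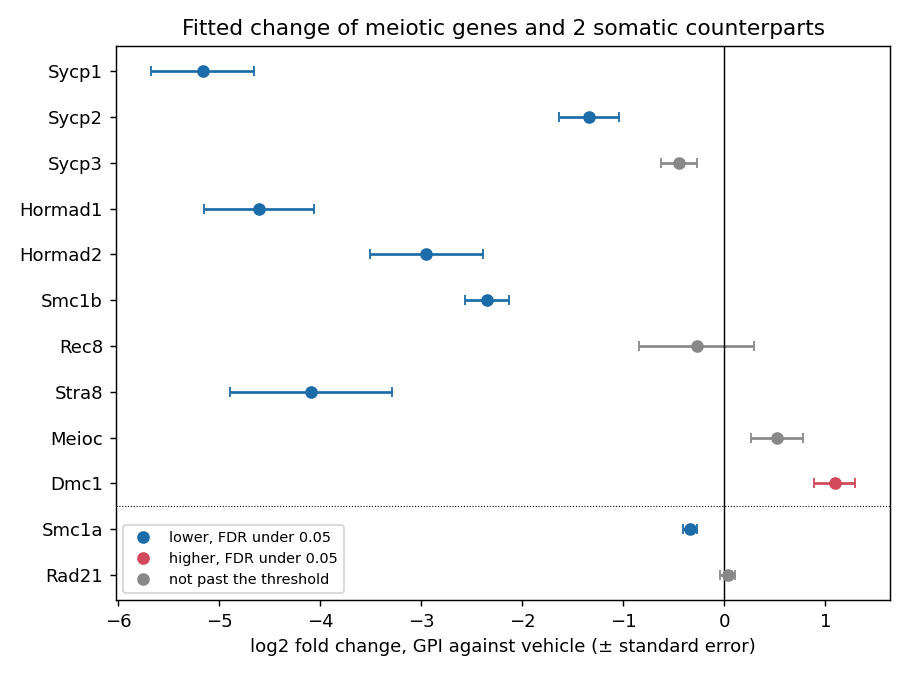
Fitted log2 fold change with GPI against vehicle for the 10 meiotic genes in order of their roles, and under the dotted line for 2 somatic counterparts; bars are standard errors of the edgeR fit over 5 mice. Values run from -5.16 for Sycp1 to 1.09 for Dmc1, while Smc1a and Rad21 are at -0.34 and 0.03.

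The somatic counterparts of SMC1B and REC8, which work in dividing cells, were measured in the same libraries. Smc1a, the counterpart of Smc1b, had 10740, 10690, 10370, 10100 and 9511 normalized counts in the vehicle testes of M1 to M5 and 7377, 8786, 8274, 8200 and 8037 in the GPI testes. It fell by 0.34 on the log2 scale (standard error 0.07, edgeR adjusted p = 0.00183) in 5 of 5 mice. For Rad21, the counterpart of Rec8, the fold change was 0.03 on the log2 scale (standard error 0.08, edgeR adjusted p = 0.811), and its sign turned with total-count scaling (-0.018) and without M2 (-0.043). A wider list held 16 genes of somatic cohesin, its loaders and regulators, all tested. Of these 1 was lower (Smc1a), 1 was higher (Wapl) and 14 did not pass, with a median log2 fold change of -0.10. Over all tested genes 11.9% were lower and 11.1% higher. The count of lower genes in the list was 3 without M2 and 2 with total-count scaling. Wapl, the cohesin release factor, was at 0.20 (edgeR adjusted p = 0.0434), and its call was lost in 9 of 13 alternatives, with adjusted p from 0.0286 to 0.230 over them. Smc3, the subunit shared by mitotic and meiotic rings, was at -0.16 (edgeR adjusted p = 0.138).

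Levels of different genes were compared as normalized counts per kb of exon. With vehicle, Sycp3 had the highest mean at 163 ± 31.2 per kb (SD, n = 5), followed by Smc1b at 122 ± 42.8 per kb, Sycp1 at 75.4 ± 26.3 per kb and Hormad1 at 50.3 ± 23.2 per kb. Lower mean levels were found for Stra8 (35.1 per kb), Dmc1 (19.7 per kb), Hormad2 (15.6 per kb), Sycp2 (14.6 per kb), Meioc (8.72 per kb) and Rec8 (6.31 per kb). Each gene in this order overlapped the next one in range over the 5 vehicle libraries. The place of Sycp3, here and with GPI, has the limit of its overlap with Chpt1 given above. With GPI the order was Sycp3 at 122 ± 34.4 per kb (SD, n = 5), Dmc1 at 42.5 ± 7.61 per kb, Smc1b at 24.0 ± 10.2 per kb and Meioc at 12.4 ± 3.21 per kb. The other 6 genes had means between 2.03 per kb (Hormad2) and 5.41 per kb (Sycp2). The range of Sycp3 lay above that of Dmc1 (lowest 66.5 against highest 53.4 per kb) and the range of Meioc above that of Sycp2 (8.97 against 6.48 per kb), while the other neighbours overlapped. Against the cohesin subunits of dividing cells all of these levels were low: Smc1a was at 2192 per kb with vehicle and Rad21 at 1810 per kb.

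Summed over the 10 genes, counts per kb were 528, 624, 509, 576 and 318 in the vehicle testes of M1 to M5 and 257, 247, 230, 143 and 219 in the GPI testes. The make-up of this sum differed between treatments. Sycp1 took 11.7% to 19.9% of it with vehicle and 0% to 2.6% with GPI, and Hormad1 took 6% to 13.4% and 0% to 2.3%. Dmc1 took 2.8% to 6% with vehicle and 17% to 23.5% with GPI, and Sycp3 took 26.7% to 39.9% and 46.5% to 66%. A share of a sum moves when any other gene moves, so the larger share of Sycp3 does not mean a higher level. The overlap of Sycp3 with Chpt1 also limits these shares.

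**Figure D3:**
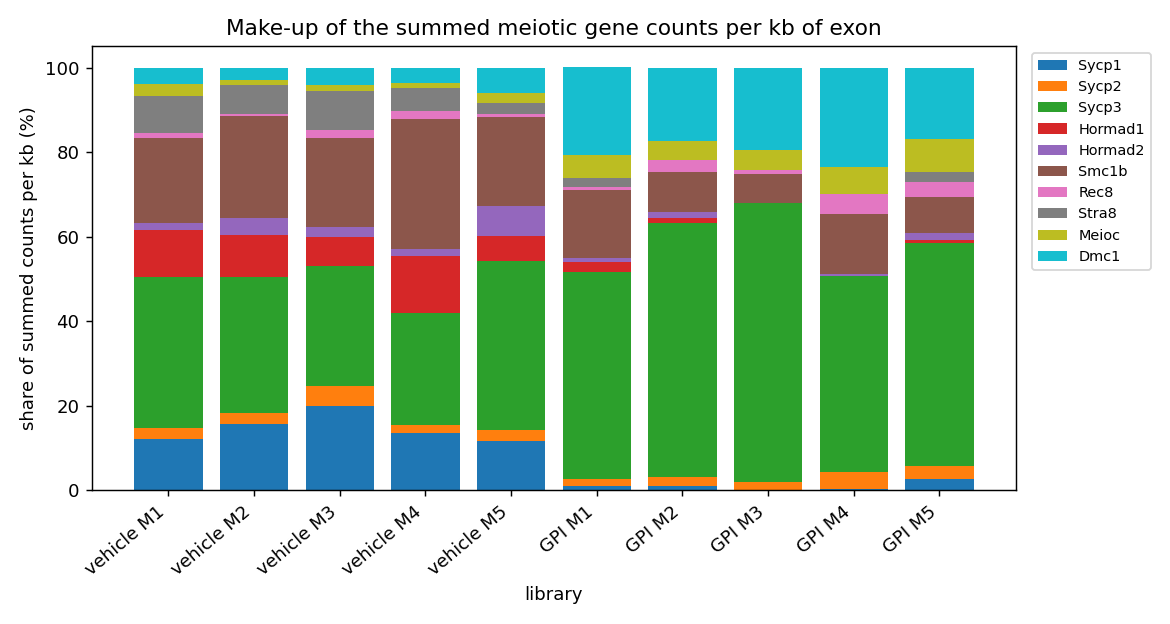
Share of each meiotic gene in the summed normalized counts per kb of exon, as stacked bars for the 10 libraries. Sycp3 and Dmc1 take most of the bar in the GPI libraries, where Sycp1 is at most 2.6%. The level of Sycp3 may hold reads of Chpt1 or miss reads of its own.

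The ratio between the gonads was not the same in each mouse. On the scale of log2 counts with a prior count of 2, which limits the ratio of a gene at 0, Sycp1 had ratios of -4.48, -5.18, -7.45, -6.46 and -2.59 in M1 to M5. Hormad1 had -3.09, -3.99, -4.96, -6.08 and -2.72, and Stra8 had -2.82, -4.97, -5.15, -4.58 and -0.56. For these 3 genes the largest drops were in M2, M3 and M4 and the smallest in M5. Mouse M5 also had the vehicle library with the lowest normalized counts for 7 of the 10 genes (Sycp1, Sycp2, Sycp3, Hormad1, Smc1b, Rec8 and Stra8) and for 7 of the 16 germ cell markers found in the table. Without M5 the fitted log2 fold changes were -6.14 for Sycp1, -4.83 for Hormad1 and -5.25 for Stra8, and each was still called. Dmc1 had ratios of 1.31, 1.28, 1.16, 0.62 and 0.93, a narrower spread than any of the genes called lower.

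**Figure D4:**
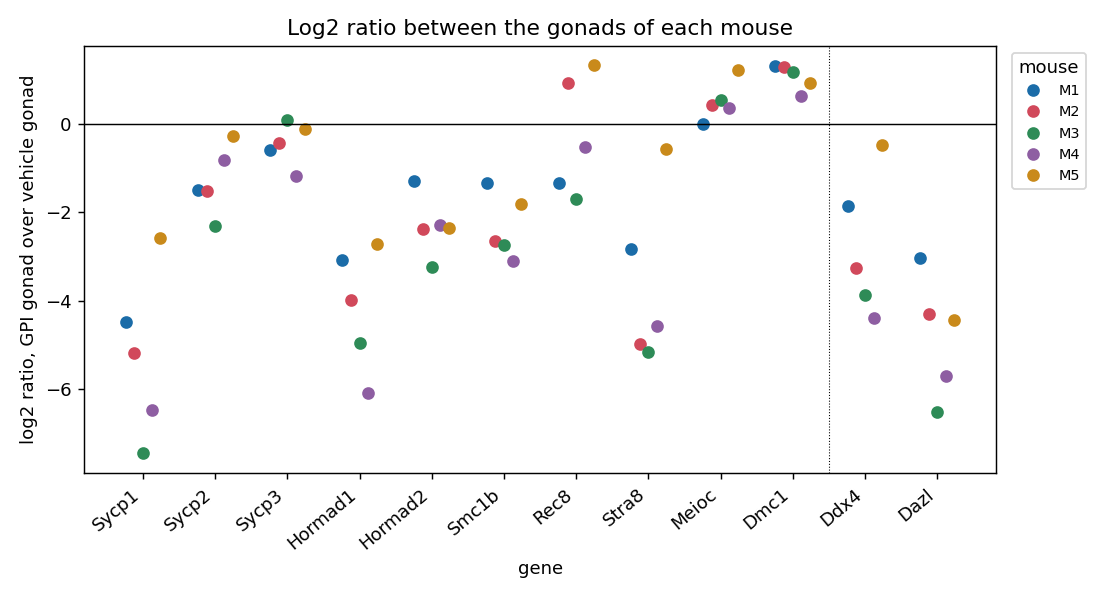
Log2 ratio of the GPI gonad over the vehicle gonad in each of 5 mice for the 10 meiotic genes and, right of the dotted line, the germ cell genes Ddx4 and Dazl. Sycp1 spans -7.45 to -2.59 and Dmc1 0.62 to 1.31.

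Markers of germ cells, the cells in which these genes are used, moved with the treatment, where 11.9% of all tested genes were called lower and 11.1% higher. Of 17 markers listed, 16 were in the table and 12 were tested, of which 10 were lower, 0 were higher and 2 (Kit and Dnd1) did not pass; in DESeq2 and in limma-voom the counts were again 10 and 0, and among genes with 10 counts or more in each library 3 of 4 were lower. Their median log2 fold change was -2.88. The markers summed to 1895, 2834, 2329, 3027 and 1883 normalized counts in the vehicle testes of M1 to M5 and to 1069, 877, 852, 1037 and 1101 in the GPI testes. Kit, a receptor also carried by blood precursors, was the most abundant of them with means of 857 and 771 normalized counts, so it made up most of the GPI sums. Dppa3, a factor of primordial germ cells, was at 360 ± 156 (SD, n = 5) in vehicle testes against 9.97 ± 9.50 (SD, n = 5) in GPI testes. Log2 fold changes were -5.20 for Dppa3, -4.89 for Sall4 and -2.39 for Prdm1, with edgeR adjusted p of 3.00e-07, 2.24e-06 and 3.41e-06. Without M1 the log2 fold change of Dppa3 was -5.89. No marker of the list was at 0 in all GPI libraries. The part of these markers' change in that of the meiotic genes was not tested.

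Ddx4, the RNA helicase that marks germ cells, had 168, 353, 220.0, 347 and 114 normalized counts in the vehicle testes of M1 to M5 and 44.8, 34.9, 13.3, 14.7 and 80.6 in the GPI testes. As with Sycp1 and Stra8, the gap was narrowest in M5. Within each mouse, the log2 ratio of Sycp1 was below that of Ddx4 in 5 of 5 mice, with differences of -2.61, -1.91, -2.08 and -2.11 in M1, M2, M4 and M5, where its GPI count was above 0. Hormad1 was below Ddx4 in M1, M2 and M5 (-1.22, -0.73 and -2.24) and Stra8 in M1 and M5 (-0.96 and -0.08). The order of Stra8 in M5, with a raw GPI count of 7, is not firm. Smc1b was above Ddx4 in 4 mice and Hormad2 in M1, M2 and M4, and both were below it in M5, with differences of -1.32 and -1.87. The raw GPI counts of Hormad2 in M1, M2 and M4 were 3, 6 and 1. The prior count weighs on ratios from so few counts, so the order of Hormad2 there is not firm. In the remaining mice Hormad1, Hormad2 and Stra8 had GPI counts of 0, and the prior count limits their ratios. On this scale Hormad1 was below Ddx4 in M3 and M4 (-1.10 and -1.70). Stra8 was below it in M2, M3 and M4 (-1.71, -1.30 and -0.20), but its order in M4 is not firm. Hormad2 in M3 (0.63) is not placed against Ddx4, since the prior count sets its ratio. In the fit the log2 fold change was -2.72 for Ddx4, against -2.95 for Hormad2. Ddx4 ran from -3.36 to -2.34 over 13 alternatives and Hormad2 from -3.25 to -2.65 over 12, so their order is not firm. Sycp2, Sycp3, Rec8, Meioc and Dmc1 were above it in 5 of 5 mice, with mean differences of 1.49, 2.32, 2.51, 3.27 and 3.83. Against Dazl, a germ cell translation regulator whose log2 fold change was -4.62, Sycp1 was below it in M1, M2 and M4 and above it in M5, and 6 of the 10 genes (Sycp2, Sycp3, Smc1b, Rec8, Meioc and Dmc1) were above it in 5 of 5 mice. Sycp1, Hormad1, Hormad2 and Stra8 cannot be placed against Dazl in each mouse, because the prior count limits their ratios where GPI libraries had 0 counts. These differences are a description and carry no test.

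Other genes of the meiotic programme were taken from 3 lists that hold 48 genes in all. Of these, 44 were found by symbol and 28 were tested, of which 7 were lower, 4 were higher and 17 did not pass. Their median log2 fold change was -0.06. Over all tested genes 11.9% were lower and 11.1% higher. Of the genes found, 5 had no count in any GPI library (Terb2, Sycp2l, Mei1, Spata22 and Meikin), and 3 of these (Terb2, Mei1 and Meikin) had none in the vehicle libraries either.

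The first list covers the central element and the proteins that tether telomeres to the nuclear envelope. Only 5 of its 12 genes were tested, of which 1 was lower, 0 were higher and 4 did not pass, with a median log2 fold change of -0.09. The lower gene was Fkbp6, which is needed for synapsis in males, with 44.7 ± 25.4 normalized counts (SD, n = 5) in vehicle testes against 9.26 ± 9.52 (SD, n = 5) in GPI testes, a log2 fold change of -2.40 (edgeR adjusted p = 0.00105). Sun1, a nuclear envelope protein of many cells, was at 0.20 (edgeR adjusted p = 0.197) and Syce2, a central element protein, at -0.20 (edgeR adjusted p = 0.314). Syce1 and Tex12, partners of SYCE2, were too scarce for the test: over the 5 libraries of a group, Syce1 had 48 raw counts with vehicle and 5 with GPI, and Tex12 had 49 and 5. Both were named after their counts had been seen. With every gene tested whatever its count, or with the filter given the paired design, 3 genes of this list were called lower; among genes with 10 counts or more in each library, 3 were tested and 0 were lower.

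The second list holds genes of meiotic DNA break formation and recombination. Here 16 of 22 genes found were tested, of which 2 were lower (Tex11 and Rec114), 3 were higher (Mnd1, Tex15 and Mei4) and 11 did not pass, with a median log2 fold change of 0.02. Tex11, which promotes synapsis and crossing over, had 130 raw counts over the 5 vehicle libraries and 7 over the 5 GPI libraries, 6 of them in 1 library. Its log2 fold change was -4.35 (edgeR adjusted p = 0.000368), and -6.02 without M1. Mnd1, which works with DMC1 in strand exchange, was at 78.9 ± 7.37 normalized counts (SD, n = 5) in vehicle testes against 177 ± 38.1 (SD, n = 5) in GPI testes, a log2 fold change of 1.15 (standard error 0.16, edgeR adjusted p = 0.000173), higher in 5 of 5 mice. Tex15, at 0.57 (edgeR adjusted p = 0.00425), was also higher in 5 of 5 mice. Spo11, which cuts the DNA to start recombination, had 37 raw counts over the vehicle libraries and 1 over the GPI libraries and was not tested; it was named after its counts had been seen. Rec114 was at -0.74 (edgeR adjusted p = 0.0273) and lost its call without M3, without M4 or without M5, with adjusted p of 0.121, 0.0866 and 0.0842. Mei4 was at 1.73 (edgeR adjusted p = 0.0390) from 33 raw counts over the vehicle libraries and 123 over the GPI libraries, and its call was lost in 5 of 12 alternatives (without M1, M3, M4 or M5 and with the filter given the paired design), with adjusted p from 0.0139 to 0.145 over the 12. Among genes with 10 counts or more in each library, 11 of this list were tested, of which 1 was lower and 2 were higher.

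The third list holds partners of meiotic cohesin and of meiotic entry. Of 10 genes found 7 were tested, of which 4 were lower (Dazl, Cpeb1, Hspa2 and Stag3), 1 was higher (Rbm46) and 2 did not pass, with a median log2 fold change of -0.56. Dazl was at 580 ± 272 normalized counts (SD, n = 5) in vehicle testes against 25.1 ± 23.1 (SD, n = 5) in GPI testes (edgeR adjusted p = 5.60e-07). Cpeb1, which controls translation of synaptonemal complex RNAs, was at -1.80 (edgeR adjusted p = 0.00117). Hspa2, a chaperone of spermatocytes, was at -0.56 (edgeR adjusted p = 0.00670). Rbm46, an RNA-binding protein of meiotic entry, had 266 ± 49.2 normalized counts (SD, n = 5) in vehicle testes against 483 ± 78.9 (SD, n = 5) in GPI testes, a log2 fold change of 0.86 (edgeR adjusted p = 0.000733). Stag3, the meiotic cohesin subunit that joins SMC1B and REC8, was at -0.69 (standard error 0.21, edgeR adjusted p = 0.0262), lower in 4 of 5 mice and with overlapping groups. Its call was lost in 5 of 13 alternatives (without the block and without M2, M3, M4 or M5), with adjusted p from 0.000741 to 0.102 over the 13. Among genes with 10 counts or more in each library, 5 of this list were tested and 2 were lower.

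**Figure D5:**
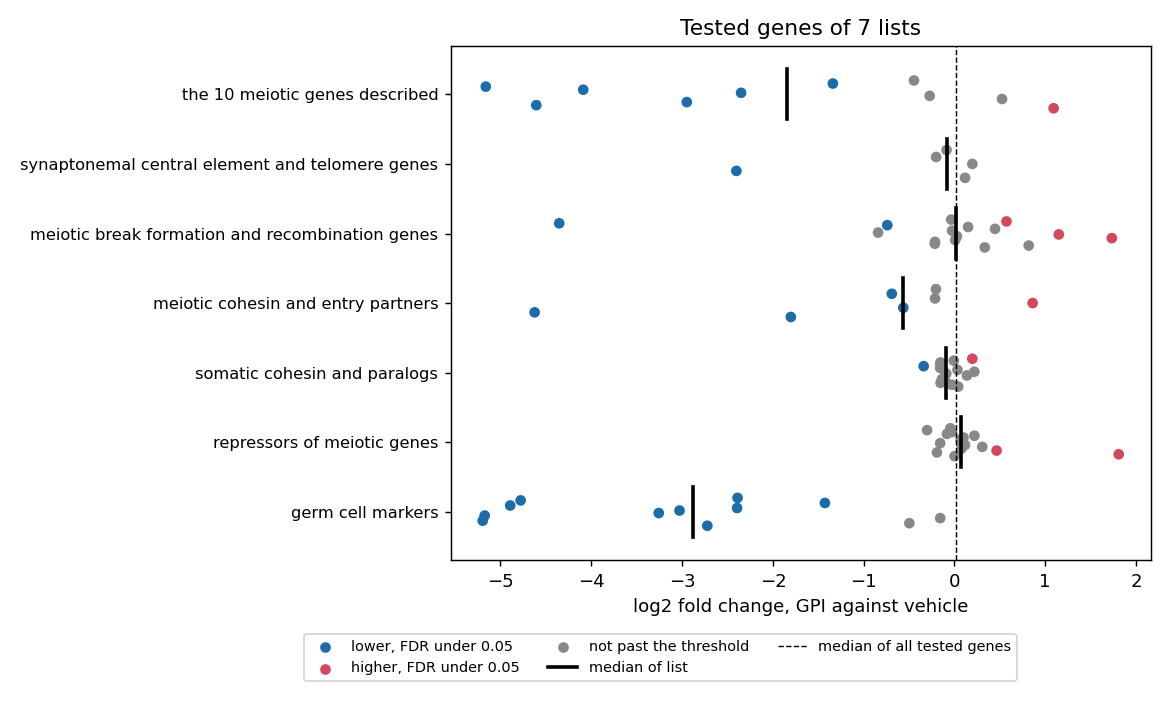
Log2 fold change with GPI against vehicle for each tested gene of 7 lists, 1 point a gene, with the median of each list as a bar and that of all tested genes (0.02) as a dashed line. The 10 meiotic genes spread from -5.16 to 1.09, the germ cell markers have a median of -2.88, and most genes of somatic cohesin and of the repressors lie near 0.

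Meiotic genes are held silent in other cells by a polycomb-like complex around MGA, MAX, PCGF6 and E2F6 and by DNA and histone methylation. Of 17 genes listed as repressors of meiotic genes, 16 were tested, of which 0 were lower, 2 were higher and 14 did not pass. Over all tested genes 11.9% were lower and 11.1% higher, so the count of higher genes is near that share. DESeq2 and limma-voom also called 0 lower, and 1 was called lower without the block, with total-count scaling or without M2. Cyp26b1 had 788 ± 199 normalized counts (SD, n = 5) in vehicle testes against 2720 ± 354 (SD, n = 5) in GPI testes, a log2 fold change of 1.81 (standard error 0.13, edgeR adjusted p = 4.94e-07). E2f6 was at 0.46 (standard error 0.09, edgeR adjusted p = 0.00159), and both were higher in 5 of 5 mice. Rnf2, a ring finger subunit of polycomb complexes, was at 0.22 (edgeR adjusted p = 0.0637). Nanos2, which blocks meiosis in male germ cells, was not tested, with 24 raw counts over the vehicle libraries, 23 of them in 1 library, and 4 over the GPI libraries; it was named after its counts had been seen.

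Markers of the other cells of the testis also moved. For comparison, 11.9% of all tested genes were called lower and 11.1% higher. Sertoli cell markers were higher in 8 of 10 tested and lower in 0. They summed to between 5193 and 8211 normalized counts with vehicle and between 7201 and 12920 with GPI, with Gata4 the most abundant. Sox8, Sox9 and Dhh, the 3 with the smallest p, had log2 fold changes of 1.43, 0.59 and 0.93. Amh (0.08) and Cldn11 (0.22) were not called. Fetal Leydig cell markers were higher in 4 of 4 tested. Their sum was 1280 to 5303 in vehicle testes against 9634 to 18090 in GPI testes. Hsd3b1 led it with vehicle and Cyp11a1 with GPI (means of 5868 against 5275 for Hsd3b1). Cyp17a1, Cyp11a1 and Hsd3b1 were at log2 fold changes of 3.90, 2.90 and 1.75. Endothelial markers were lower in 6 of 6 tested, with sums of 6695 to 7839 with vehicle and 506 to 914 with GPI. Cdh5 led the vehicle sums and Kdr the GPI sums (means of 282 against 232 for Cdh5). Cdh5, Flt1 and Pecam1 were at -3.63, -5.18 and -4.16. Macrophage markers were lower in 4 of 5 tested, with sums led by Cd68 of 435 to 658 and 174 to 340. Csf1r, Cx3cr1 and Mrc1 were at -2.22, -2.38 and -0.90, and Adgre1 was not called (-0.26). Pre-granulosa markers, which tell whether the supporting cells took an ovarian course, were lower in 1 of 4 tested (Wnt4, -0.78). Foxl2 (-0.54), Fst (-0.19) and Rspo1 (-0.14) were not called. The sums, led by Wnt4, were 1341 to 1757 with vehicle and 811 to 1351 with GPI. Of the genes listed for mesonephric epithelium, 2 were tested: Emx2 was lower (-0.73) and Pax8 was not called (-0.28). The list summed to 850 to 1570 with vehicle and 576 to 946 with GPI. These sums mostly follow Emx2, whose vehicle mean was 981. Pax2, Lhx1 and Cdh16 had vehicle means of 10.1, 6.35 and 33.5 and were not tested, so the values say little of mesonephric epithelium. No marker of these lists was at 0 in all GPI libraries. A set of libraries in which several cell types moved cannot tell a change in germ cells from a change in the rest, and the part of the other cell types in the values of the meiotic genes was not tested.

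The tested genes whose profile over the 10 libraries lay nearest to the mean profile of the 10 meiotic genes were C1qb, Raph1, Osbp2, Sparcl1 and Tnfaip8l1. Their root mean square differences from it were 0.25, 0.28, 0.28, 0.29 and 0.30 on the log2 scale. Each was lower in 5 of 5 mice, with log2 fold changes from -2.17 (Osbp2) to -1.84 (Tnfaip8l1). They were picked for their likeness in these same libraries, so this fall follows from the choice. Raph1 and Sparcl1 had mean normalized counts of 3232 and 4404 with vehicle, and C1qb, a complement gene of macrophages, had 92.5. The mean profile averages genes that fell with genes that did not, so a small difference from it says little of any single gene.

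The promoters of the 10 genes, read from RefSeq for GRCm38.p6 as 250 bases before and 50 after the start, were searched on both strands for 4 short motifs. A gene was counted for a motif if any of its promoters held it. CACGTG, the E-box that MGA and MAX bind, was found in 3 of 10 (Sycp1, Sycp3 and Hormad1). This stood against 8.1% of 27025 genes with a promoter and 11.5% of the 10998 tested genes among them. GCGGGA, the core of sites bound by E2F proteins, was found in 7 of 10, against 22.0% and 39.7%. AGGTCA, the nuclear receptor half-site read by retinoic acid receptors, was found in 3 of 10 (Sycp3, Hormad1 and Stra8), against 18.1% and 14.6%. CNCCTCAG, a sequence reported for STRA8, was found in 2 of 10 (Sycp1 and Hormad2), against 9.1% and 10.9%. No motif overlapped another in the sequences shown here.

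The 150 bases before the start are shown for the 3 genes with an E-box, because they share it and differ in their values, and for Dmc1, because it was the gene that was higher. Capitals mark the motifs, each sequence runs 5' to 3' on the strand of its gene, and the stretches are chr3:102936101-102936250 on the minus strand for Sycp1, chr3:95559527-95559676 on the plus strand for Hormad1, chr10:88459437-88459586 on the plus strand for Sycp3 and chr15:79605110-79605259 on the minus strand for Dmc1.
Sycp1: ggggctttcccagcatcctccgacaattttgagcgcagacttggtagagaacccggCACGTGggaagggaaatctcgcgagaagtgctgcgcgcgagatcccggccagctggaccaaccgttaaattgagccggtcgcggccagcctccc
Hormad1: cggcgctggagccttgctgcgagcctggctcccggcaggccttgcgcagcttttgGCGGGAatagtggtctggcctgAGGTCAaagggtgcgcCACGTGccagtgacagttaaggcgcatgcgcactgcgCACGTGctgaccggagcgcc
Sycp3: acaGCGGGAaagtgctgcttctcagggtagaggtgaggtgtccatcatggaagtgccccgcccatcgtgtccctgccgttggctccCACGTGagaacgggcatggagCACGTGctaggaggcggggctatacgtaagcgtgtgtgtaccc
Dmc1: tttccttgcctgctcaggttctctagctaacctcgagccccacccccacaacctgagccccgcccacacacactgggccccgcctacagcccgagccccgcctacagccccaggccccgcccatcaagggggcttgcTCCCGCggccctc

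Hormad1 holds its pair of E-boxes 57 and 20 bases before the start, Sycp3 holds its pair 64 and 43 bases before the start, and Sycp1 holds 1 at 94 bases before the start. Of these 3 genes, Sycp1 and Hormad1 were called lower, with log2 fold changes of -5.16 and -4.61, and Sycp3 was at -0.45 and not called. Dmc1 holds no E-box in this window and carries GCGGGA on the opposite strand 13 bases before its start, and Smc1b, which fell by 2.35 on the log2 scale, carries it on the opposite strand 47 bases before its start. A match of letters is a description of the sequence, and whether any factor sat there was not measured.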

How the data were processed

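Total RNA of 10 cultured testes, 1 vehicle and 1 GPI gonad from each of 5 embryos, was amplified with the Ovation RNA-Seq System V2. STAR alignment to mm10 and unstranded counting on RefSeq Curated models with featureCounts (Subread 1.5.0-p1) were done by the authors, who deposited the unnormalized counts of 24470 gene entries; 0 further columns of sample values were found. The members and gene lists were chosen with earlier results of these data known.

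Counts were filtered with filterByExpr (minimum count 10, minimum total 15), leaving 13941 genes, scaled by TMM and tested with edgeR 4.0.16 (glmQLFit, glmQLFTest, mouse and treatment in the design, Benjamini-Hochberg adjustment, FDR 0.05). Each standard error is the size of the log2 fold change over the square root of F. Libraries held 10203679 to 15635322 counts. Amplified reads carry no molecular identifiers here and are not independent molecules, so the limit at a count of 0 (3 counts) covers counting error only. The procedure was tested on simulated data before use.

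Exon lengths came from GENCODE M21 transcripts. The genes named are the 10 members, Smc1a, Rad21, the 3 tested genes of each other list with the smallest p, and the 5 genes with the nearest profile; others complete a count of 5 or fewer, lead the sum of a marker list or are said to be named after their counts were seen, and Ddx4 was added as a germ cell reference. Ankrd31, Rnf212, Shoc1, Meiosin and Gcna were not found by symbol, and Six6os1 and Top6bl were read under older symbols; 1 further gene of the rule and lists is not reported here.

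Libraries of a group were not duplicates (chi-square per degree of freedom 6.42 to 27.8 over genes with at least 100 counts). The labels pair gonads by embryo; deviations from the group means correlated at -0.04 to 0.15 within a mouse (mean 0.06) and at -0.01 on average between mice. Alternatives were DESeq2 1.42.0, limma 3.58.1 with voom, a fit without the replicate block, scaling by DESeq2 size factors or by total counts alone, testing every gene with a count, keeping genes with 10 counts or more in each library, leaving out each mouse and, chosen after seeing the data, filterByExpr given the paired design. R was version 4.3.3.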

Additional observations from a re-analysis of the deposited data

Results flagged for a closer look

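Among the vehicle testes, the normalized counts of Meioc had 1 value far from the rest: mouse M1 had 64.2 and the next highest library 37.0, a gap that is 0.842 of the whole range of the group. Without M1 the log2 fold change of Meioc was 0.65 (edgeR adjusted p = 0.148; 0.148 to 0.468 over 13 alternatives) and it was not called, as with all mice. This was 1 of 20 groups of 5 tested (10 genes, 2 treatments), and chance marks about 1 in 20.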

How the results depend on the processing

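Without the replicate block, 3108 genes were called in place of 3198, and the 10 meiotic genes again gave 6 lower and 1 higher; dropping the pairing changed no call among the 10. The counts of 6 lower and 1 higher held under each alternative but the demand for 10 counts or more in each library, where 5 of the 10 genes were tested and 2 were lower; it sets aside genes that fall to few counts, Sycp1, Hormad1, Hormad2 and Stra8 among them, and Rec8. There 3 of the other meiotic genes were called lower, in place of 7. With 1 mouse left out, 2311 to 3082 genes were called, and 969 without M3 and 1024 without M4 were higher, in place of 1544. Of 125 log2 fold changes of the 10 genes under the alternatives, 124 kept their sign and their side of the threshold, and Rec8 turned to 0.13 without M3 (-0.74 to 0.13 with 1 mouse left out). Of 614 values of 48 other named genes, 22 lost their call (Wapl in 9 alternatives, Mei4 and Stag3 in 5 each and Rec114 in 3), 3 gained one (Smc3 in 2 alternatives and Rnf2 in 1) and 2 changed sign: Rad21 at -0.018 with total counts only and -0.043 without M2 (-0.043 to 0.063 with 1 mouse left out). With total counts only, 1238 genes were called higher and 1972 lower, in place of 1544 and 1654. The causes were not tested. Of the 10 genes, Stra8, Rec8 and Hormad2 had the largest standard errors, 0.80, 0.57 and 0.56; over 12 alternatives Sycp1 ran from -6.14 to -4.72 and Hormad1 from -5.23 to -4.13.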
